A study of Mus musculus with 6 samples.

Results

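The genes of the endoplasmic reticulum (ER) stress response and of the integrated stress response were followed over 6 mouse expression arrays. The set had 36 genes: 16 chaperones and folding enzymes, 7 genes of ER-associated degradation, 5 stress sensors and factors closest to them, and 8 genes of the Atf4-Ddit3 arm. All 36 had a probe set with a single gene symbol, out of 18194 genes on the array, and all 36 passed the filter on dim genes. Where a gene had several probe sets, the brightest by its mean over all 6 arrays was used.

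RNA of 4 arrays came from MIN6 cells, a mouse insulin-secreting beta-cell line, and that of 2 from pancreatic islets. The MIN6 cells had been infected for 48 h, at a multiplicity of infection of 250, with an adenovirus that expressed miR-7a (AdmiR7a, 2 arrays), miR-7b (AdmiR7b, 1 array) or, as control, green fluorescent protein (AdGFP, 1 array). The medium had 4.5 g/l glucose, Glutamax, 2-mercaptoethanol and 2% serum, and all 4 cultures, the control included, carried virus. The islets were of C57BL/6 background. KO islets (1 array) carried a Lox/Cre deletion of miR-7a2 restricted to beta cells, and WT islets (1 array) were the wild-type control. The labels do not give the Cre driver, whether the WT mice carried Cre or floxed alleles, or the age and number of mice. MIN6 is a single cell line, and KO islets keep miR-7a2 in cells other than beta cells. AdmiR7a is labelled a duplicate infection without saying whether the cultures were separate, so the p-values measure only the spread between these arrays, which may be technical. Raising or removing miR-7 asks which beta-cell transcripts respond to it; mature miR-7 itself was not measured.

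Beta cells fold and secrete large amounts of proinsulin, and their ER is sensitive to overload. When unfolded proteins accumulate, 3 sensors in the ER membrane respond: Atf6 is cut to release a transcription factor, Ern1 (IRE1) splices the mRNA of Xbp1, and Eif2ak3 (PERK) phosphorylates the translation initiation factor eIF2. Atf6 and Xbp1 raise chaperone and degradation genes. Phosphorylated eIF2 slows translation but favours that of Atf4, which raises genes of amino acid supply and, under lasting stress, Ddit3 (CHOP). Other eIF2 kinases feed into the same Atf4 step, which is called the integrated stress response. Cleavage of Atf6, splicing of Xbp1 and translation of Atf4 are not visible to probe sets that measure total mRNA.

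The mature sequences of the microRNAs are printed because the arrays of both vectors were pooled in the main test. They come from RefSeq (GRCm38.p6) and lie at chr7:78888295-78888317, + strand, in Mir7-2, and at chr17:56243017-56243040, + strand, in Mir7b. Capitals mark the seed, bases 2 to 8 from the 5′ end.
miR-7a-5p: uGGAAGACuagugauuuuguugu
miR-7b-5p: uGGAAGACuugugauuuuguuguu
The seeds were identical. Over the shared length the microRNAs differed at 1 base, A10U (the miR-7a base, its position from the 5′ end, the miR-7b base).

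Promoter motifs were counted by arm, and some arms held more than 1 kind. The 250 bases before the start site were searched on both strands in 31 of the 36 members; Derl1, Ppp1r15b, Manf, Atf6 and Hyou1 were not searched. The ER stress response element, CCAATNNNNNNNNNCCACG, was found in 8 of the 31 members, against 0.113% of 32851 promoters in RefSeq. These were 7 of 14 chaperone promoters (Calr, Canx, Creld2, Dnajc3, Hsp90b1, Hspa5 and Pdia6) and 1 of 6 degradation promoters (Syvn1). The Atf4-binding element TGATGNAA was found in Asns, Atf3, Chac1 and Herpud1, against 3.45% of promoters. TGACGTCA, the cyclic AMP response element, was found among members in Ppp1r15a alone (1.55% of promoters) and the Xbp1-type core TGACGTG in Hspa5 alone (1.65%). A match is a description of these letters and not of binding.

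The windows below show Hspa5, the chaperone most used as a readout of ER stress, and the members with the ER stress response element that fell with miR-7, Pdia6 and Syvn1. The element is in capitals; it was not found in the window of Ero1a, the other chaperone gene that fell. They are given 5′ to 3′ on the strand of the gene, from chr2:34772013-34772055 (+), chr12:17266479-17266521 (+) and chr19:6046520-6046562 (+) of GRCm38.p6.
Hspa5: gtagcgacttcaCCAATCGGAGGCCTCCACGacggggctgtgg
Pdia6: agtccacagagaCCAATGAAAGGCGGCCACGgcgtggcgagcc
Syvn1: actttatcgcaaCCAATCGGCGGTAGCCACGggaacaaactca
The next windows show the Atf4-type element in capitals, for 1 gene that rose with miR-7, 2 that fell and 1 that was not called. They lie at chr1:191183424-191183455 (−), chr6:7693213-7693244 (−), chr2:119351037-119351068 (+) and chr8:94386305-94386336 (+). In Atf3, Chac1 and Herpud1 the element is read on the strand opposite to the gene, as TTGCATCA.
Atf3: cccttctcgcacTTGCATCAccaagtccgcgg
Asns: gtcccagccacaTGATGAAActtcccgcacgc
Chac1: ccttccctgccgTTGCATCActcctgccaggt
Herpud1: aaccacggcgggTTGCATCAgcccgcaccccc

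Values are log2 probe set intensities as deposited. Differences in MIN6 are the mean of the 3 miR-7 arrays minus the single AdGFP array, with the standard error of a limma fit that assumes AdGFP to vary like the miR-7 arrays. A gene "rose" or "fell" where the Benjamini-Hochberg adjusted p over all 10367 genes tested was under 0.05. Of the members, 4 rose (11.1%), against 14.0% of all genes, and 6 fell (16.7%), against 12.1%. The members that rose were Atf3, Ddit3, Eif2ak3 and Ppp1r15a, and those that fell were Atf6, Ero1a, Syvn1, Chac1, Asns and Pdia6. The shares lay near those of all genes. When any 1 miR-7 array was left out, 0 of the 10 members and 0 genes in all were called, with 1 residual degree of freedom and limma adjusted p between 0.065 and 0.109 for the 10. Between 3776 and 3886 genes and between 14 and 15 members then had an unadjusted p under 0.05. The 10 members kept their direction in each of these fits. This was fixed in advance, because in each of them all 3 miR-7 arrays lay on one side of AdGFP. With no filter on dim genes, Atf3 was the only member called (adjusted p = 0.00736), and 403 genes rose and 540 fell.

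By position alone, AdGFP lay above all 3 miR-7 arrays in 24 members, against 34.0% of all genes, and below all 3 in 9 members, against 46.2%. The 24 were 12 of 16 chaperones, 6 of 7 degradation genes, 3 of 5 sensors and 3 of 8 genes of the Atf4-Ddit3 arm. The median difference was −0.12 over the members and 0.06 over all genes. By arm it was −0.09 for chaperones, −0.37 for degradation genes, −0.16 for sensors and 0.17 for the Atf4-Ddit3 arm.

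**Figure D1:**
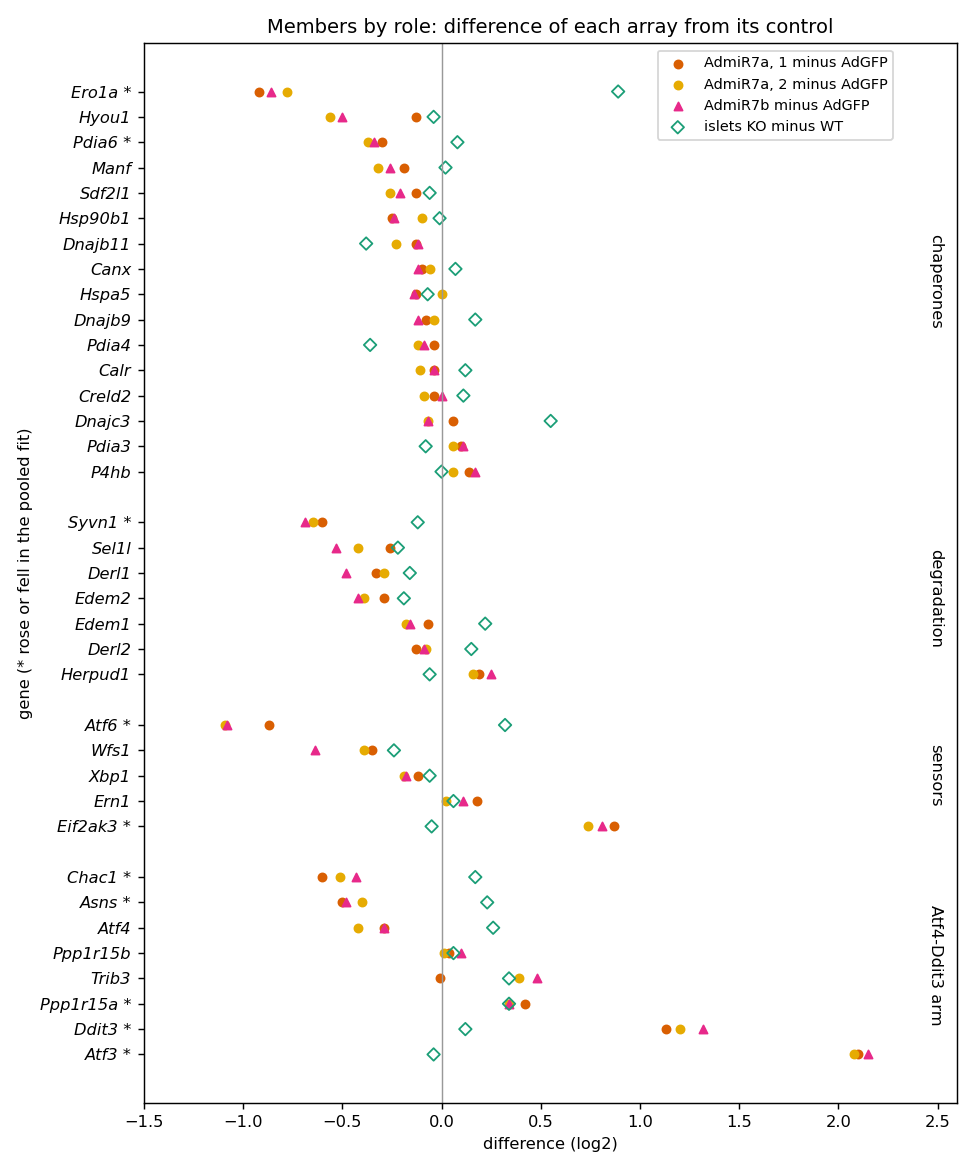
Difference of each miR-7 array from AdGFP (filled symbols) and of KO from WT islets (open diamonds) for the 36 members, in log2 on the x axis, with genes on the y axis by role and asterisks on the 10 genes that rose or fell. Atf3 and Ddit3 lie farthest to the right (2.11 and 1.21 as means) and Atf6 and Ero1a farthest to the left (−1.01 and −0.85), while most chaperones lie just left of 0.

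The sensors moved apart. Eif2ak3, the eIF2 kinase of the ER, read 11.18 on AdGFP and 12.05, 11.93 and 12 on the AdmiR7a and AdmiR7b arrays. All 3 miR-7 arrays lay above the control, and Eif2ak3 rose by 0.81 ± 0.08 (SE; 1.75-fold; adjusted p = 0.0145). Atf6 read 10.30 on AdGFP and 9.44, 9.21 and 9.22 on the miR-7 arrays. The control again stood apart, and Atf6 fell by 1.01 ± 0.12 (2.02-fold lower; adjusted p = 0.0178).

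Ern1, which carries the kinase and RNase of the remaining sensor, was not called. It read 12.35 on AdGFP and 12.53, 12.37 and 12.45 with miR-7, with the lowest miR-7 array level with the control (0.10 ± 0.09; adjusted p = 0.452). Its target Xbp1 read 13.96 on AdGFP and 13.84, 13.76 and 13.78 with miR-7 (−0.16 ± 0.08; adjusted p = 0.183). Wfs1 encodes wolframin, an ER membrane protein whose loss causes a diabetes syndrome. It read 9.62 on AdGFP against 9.27, 9.23 and 8.97, all below the control, and did not pass the test (−0.46 ± 0.15; adjusted p = 0.0904).

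The Atf4-Ddit3 arm held both the highest and some of the lowest members. Atf3, a stress-induced transcription factor, read 6.91 on AdGFP and 9.01, 8.99 and 9.06 on the miR-7 arrays, which lay close together and far above the control. It rose by 2.11 ± 0.07 (4.31-fold; adjusted p = 0.0103), the highest value of any member. Ddit3 encodes the pro-apoptotic factor CHOP. It read 10.30 on AdGFP and 11.43, 11.50 and 11.62 with miR-7, with no overlap, and rose by 1.21 ± 0.10 (2.32-fold; adjusted p = 0.0126). Ppp1r15a (GADD34), the inducible subunit that brings a phosphatase to eIF2, read 8.45 on AdGFP against 8.88, 8.79 and 8.79. These lay above the control by less than for Atf3 or Ddit3, and Ppp1r15a rose by 0.37 ± 0.08 (adjusted p = 0.0435). Its constitutive counterpart Ppp1r15b read 11.94 on AdGFP and 11.98, 11.94 and 12.04 with miR-7 (0.05 ± 0.08; adjusted p = 0.681).

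Atf4 itself and its metabolic targets lay on the other side of the control. Atf4 read 13.37 on AdGFP and 13.08, 12.95 and 13.09 with miR-7, all below the control, and missed the threshold (−0.34 ± 0.09; adjusted p = 0.0678). Asns, asparagine synthetase, read 14.08 on AdGFP against 13.58, 13.68 and 13.60 and fell by 0.46 ± 0.08 (adjusted p = 0.0296). Chac1, an enzyme that breaks down glutathione, read 10.78 against 10.18, 10.27 and 10.36 and fell by 0.51 ± 0.10 (adjusted p = 0.0339). In both genes the 3 miR-7 arrays lay together below the control. Trib3, a pseudokinase induced by Ddit3 and Atf4, read 9.55 on AdGFP and 9.54, 9.94 and 10.03 with miR-7. The first AdmiR7a array was level with the control, and Trib3 was not called (0.29 ± 0.22; adjusted p = 0.39). Of the 3 members of this arm with an Atf4-type element in the promoter window, Atf3 thus rose, and Asns and Chac1 fell.

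**Figure D2:**
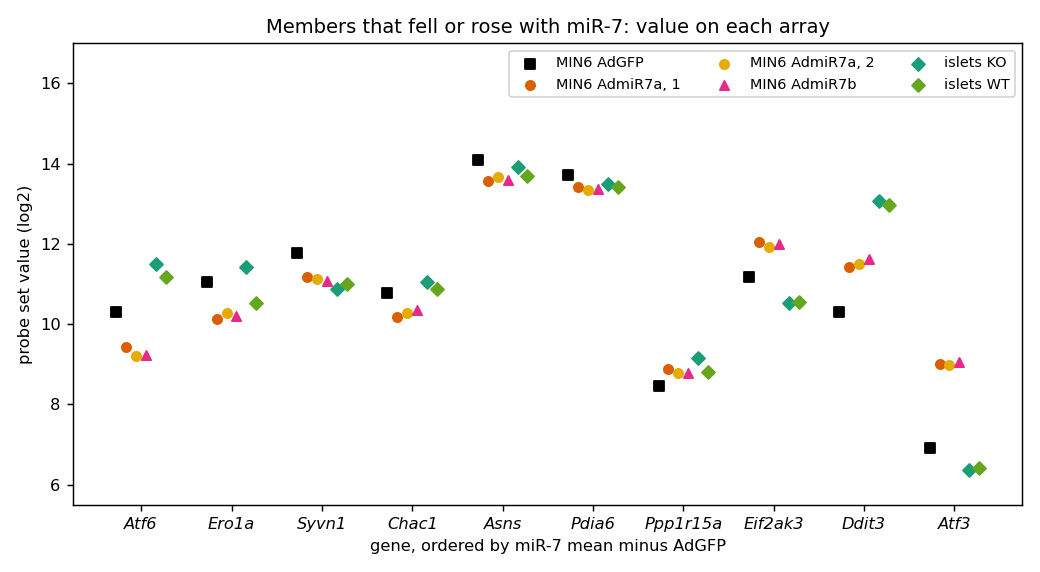
Log2 probe set value (y axis) of the 10 members that rose or fell, on each of the 6 arrays, with genes on the x axis ordered by the miR-7 mean minus AdGFP. The 3 miR-7 arrays lie on one side of AdGFP (black squares) in each gene; Atf3 is at 6.91 on AdGFP and between 8.99 and 9.06 with miR-7.

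Other known Atf4 targets were listed apart from the members. Of 26 tested, 0 rose, against 14.0% of all genes, and 13 fell, against 12.1%, with a median of −0.45. AdGFP lay above all 3 miR-7 arrays in 24 of them, against 34.0% of all genes. The list was chosen with results of these data known, so its count is a description. Cth, which makes cysteine from cystathionine, read 9.98 on AdGFP and 7.55, 7.59 and 7.79 with miR-7 and fell by 2.34 ± 0.13 (adjusted p = 0.0103). Atf5, a transcription factor of the same response, read 10.42 against 8.59, 8.85 and 8.77 and fell by 1.69 ± 0.13 (adjusted p = 0.0125). The alanine aminotransferase gene Gpt2 fell by 1.55 ± 0.17 (adjusted p = 0.0151) and the stress-induced gene Nupr1 fell by 1.28 ± 0.08 (adjusted p = 0.0108). The other 9 that fell lay between −1.07 for the amino acid transporter gene Slc7a3 and −0.37 for Slc7a5, with the serine synthesis genes Phgdh and Psph at −0.72 and −0.71.

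**Figure D3:**
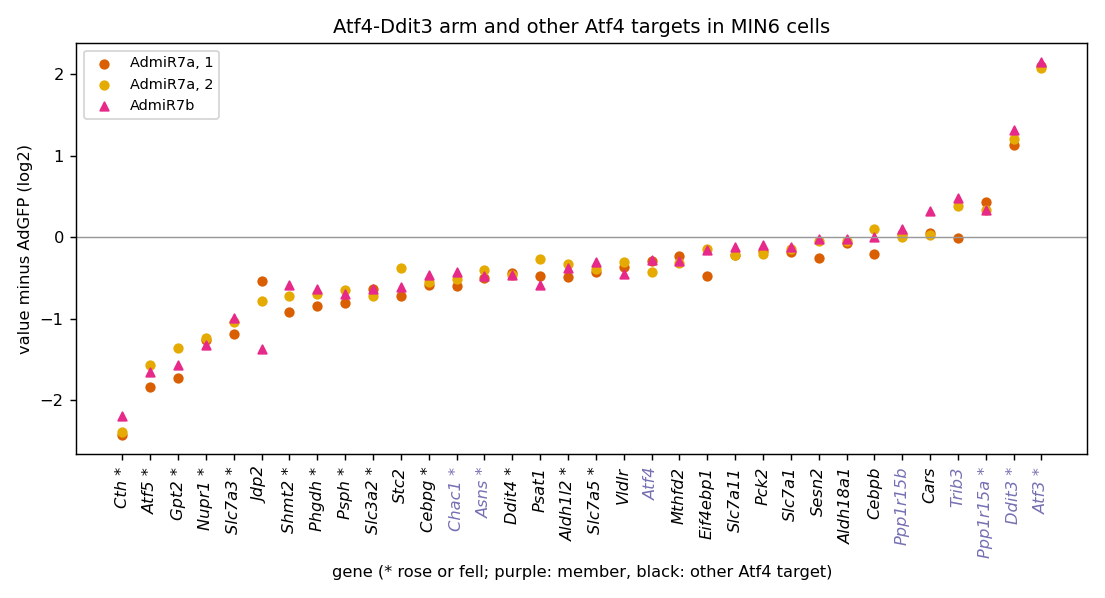
Difference of each miR-7 array from AdGFP (log2, y axis) for the 8 members of the Atf4-Ddit3 arm (purple names) and 26 other Atf4 targets (black names), ordered on the x axis by mean. Cth lies lowest (−2.34 as a mean) and Atf3 highest (2.11); asterisks mark genes that rose or fell.

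Around these genes, the eIF2 kinases and factors (12 tested) had a median of 0.00. Of these, 2 rose, against 14.0% of all genes, and 2 fell, against 12.1%. Eif2ak2, the kinase activated by double-stranded RNA (PKR), read 6.77 on AdGFP and 7.65, 8.02 and 7.78 with miR-7 and rose by 1.04 ± 0.17 (adjusted p = 0.0253). Eif2ak1, the heme-regulated kinase, read 6.62 against 5.42, 5.03 and 4.98 and fell by 1.48 ± 0.21 (adjusted p = 0.0207). Impact rose by 0.42 and Eif2s3x fell by 0.34 (adjusted p = 0.0268 and 0.0433). Of 15 cytosolic tRNA synthetases, many of which Atf4 can raise, Hars rose by 0.33 and Wars fell by 1.08 (adjusted p = 0.0497 and 0.0133), and the median was −0.05. These calls are to be read against the same shares of all genes.

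Through the probe sets used, most chaperones changed little in size. Some other probe sets lay lower, such as a probe set each of Hsp90b1 (−0.46), Hyou1 (−0.57) and Canx (−0.45). Others did not, such as those of Calr (−0.09 and −0.01). Of the 16 chaperones, 0 rose, against 14.0% of all genes, and 2 fell (12.5%, against 12.1%). AdGFP lay above all 3 miR-7 arrays in 12, against 34.0% of all genes. Ero1a, the oxidase that recharges protein disulfide isomerases, read 11.05 on AdGFP and 10.14, 10.27 and 10.19 with miR-7. The gap was clear of the spread, and Ero1a fell by 0.85 ± 0.09 (1.81-fold lower; adjusted p = 0.0142). The disulfide isomerase gene Pdia6 read 13.72 against 13.42, 13.35 and 13.38 and fell by 0.34 ± 0.08 (1.27-fold lower; adjusted p = 0.0449).

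Hspa5 (BiP), the Hsp70 chaperone that also holds the sensors inactive, is the usual readout of this response. It read 15.27 on AdGFP and 15.14, 15.27 and 15.13 with miR-7, so the arrays overlapped, and it was not called (−0.09 ± 0.09; adjusted p = 0.526). Hsp90b1, the ER member of the Hsp90 family, read 15.26 against 15.01, 15.16 and 15.02 (−0.19 ± 0.10; adjusted p = 0.213). The secreted survival factor Manf read 14.86 against 14.66, 14.54 and 14.59 (−0.26 ± 0.09; adjusted p = 0.0974). Hyou1, a large Hsp70-related protein that recharges Hspa5, read 10.86 against 10.73, 10.30 and 10.36. Its first AdmiR7a array lay nearer to the control than to the other miR-7 arrays (−0.40 ± 0.20; adjusted p = 0.211).

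The other 10 chaperones stayed within 0.20 of AdGFP as means. The co-chaperone genes Sdf2l1, Dnajb11 and Dnajb9 were at −0.20, −0.16 and −0.08, and Dnajc3, whose protein also inhibits eIF2 kinases, was at −0.03. The lectin chaperones Canx and Calr, which hold glycoproteins during folding, were at −0.09 and −0.06. Pdia4 was at −0.08 and Creld2 at −0.04, while the disulfide isomerase genes Pdia3 (0.09) and P4hb (0.12) lay above the control on all 3 arrays. None of the 10 passed the test (adjusted p between 0.171 and 0.85). The 7 chaperones with an ER stress response element thus included 1 that fell, Pdia6, and 6 that were not called.

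Degradation genes had the lowest median of the arms, −0.37. Of the 7, 0 rose, against 14.0% of all genes, and 1 fell (14.3%, against 12.1%). Syvn1 (Hrd1), the ubiquitin ligase of the ER membrane, read 11.77 on AdGFP and 11.18, 11.13 and 11.08 with miR-7 and fell by 0.65 ± 0.08 (1.56-fold lower; adjusted p = 0.0178). Its partner Sel1l read 10.23 against 9.97, 9.81 and 9.70 (−0.40 ± 0.13; adjusted p = 0.0963). Edem2, which trims glycans of misfolded proteins, read 10.50 against 10.21, 10.11 and 10.08 (−0.37 ± 0.09; adjusted p = 0.0509). All 3 miR-7 arrays lay below AdGFP in each of these genes, yet Sel1l and Edem2 missed the threshold.

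Derl1 and Derl2 encode derlins, which help misfolded proteins out of the ER. Derl1 read 12.84 on AdGFP against 12.51, 12.55 and 12.36 (−0.37 ± 0.11; adjusted p = 0.0753), and Derl2 read 12.53 against 12.40, 12.45 and 12.44 (−0.10 ± 0.07; adjusted p = 0.364). Edem1, related to Edem2, was at −0.13 (adjusted p = 0.291). Herpud1, which scaffolds the Syvn1 complex, was the only degradation gene above the control, at 11.34 on AdGFP against 11.54, 11.50 and 11.60 (0.20 ± 0.08; adjusted p = 0.135). Of the 6 degradation promoters searched, its window alone held an Atf4-type element.

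Of 31 other genes of ER folding and quality control, 1 rose, against 14.0% of all genes, and 4 fell, against 12.1%, with a median of −0.06. Ppib, a proline isomerase of the ER, read 13.84 on AdGFP and 12.32, 12.27 and 12.04 with miR-7 and fell by 1.63 (adjusted p = 0.0128). Ganab, a glucosidase subunit that trims new glycans, fell by 1.66 (adjusted p = 0.0448), and the Ero1a relative Ero1b fell by 1.30 (adjusted p = 0.0136). Txndc11 fell by 0.41 and the ubiquitin-conjugating enzyme gene Ube2g2 rose by 0.47 (adjusted p = 0.0273 and 0.0376).

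Several members had further probe sets, and some of these read differently. The 36 members had 83 probe sets, of which 75 had a MIN6 mean of at least 4 (log2), and 23 members had more than 1 such probe set. In 20 of the 23 all probe sets lay on the same side of AdGFP by the mean, among them the 7 called members in this group. The 3 probe sets of Ero1a were at −0.85, −0.89 and −1.04, those of Syvn1 at −0.65 and −0.89, those of Pdia6 at −0.34 and −0.56 and those of Asns at −0.46 and −0.54. Sizes differed more in Atf6 (−1.01, −0.39 and −0.39), Ddit3 (1.21 and 0.17) and Eif2ak3, whose other probe set was dim (4.14 on AdGFP) and at 0.13.

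A few members looked larger through another probe set. Edem1 was at −0.13 with the probe set used, but another read 11.09 on AdGFP and 9.91, 9.66 and 9.41 with miR-7, a difference of −1.42. Ern1 was at 0.10 with the probe set used, and others were at 1.05, −0.01 and −0.26. The 4 further probe sets of Dnajc3 lay between −0.76 and −0.25, against −0.03. With the mean of all probe sets of a gene in place of the brightest, 10 members fell and 3 rose. Hsp90b1 (−0.32), Hyou1 (−0.58), Edem1 (−0.78) and Derl1 (−0.34) then fell with adjusted p of 0.0358, 0.0208, 0.0225 and 0.0343, and Eif2ak3 (0.32) lost its call (adjusted p = 0.0539).

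**Figure D4:**
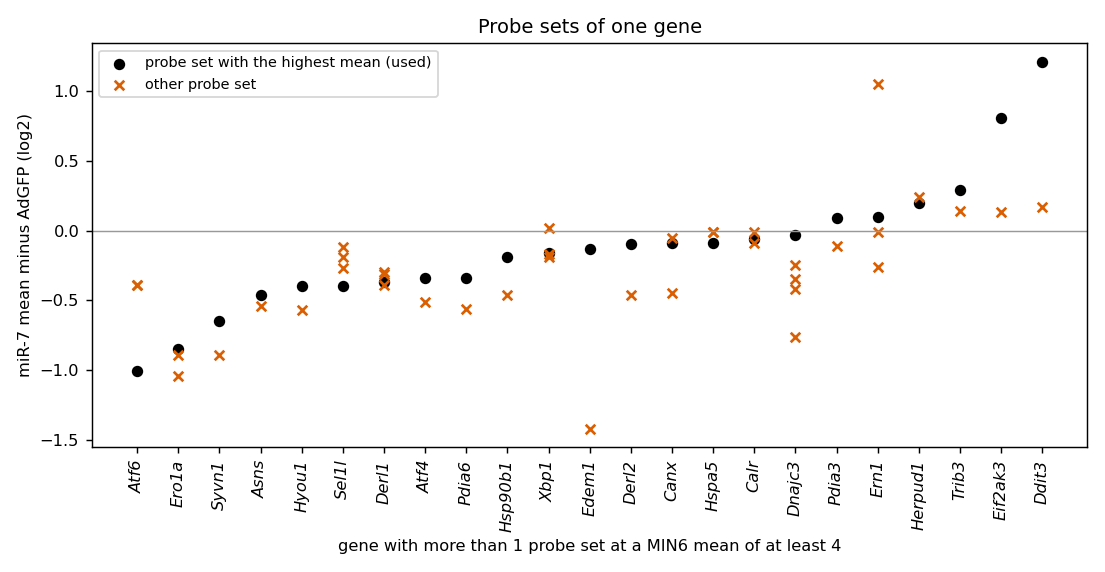
Mean of the 3 miR-7 arrays minus AdGFP (log2, y axis) for each probe set with a MIN6 mean of at least 4, in the 23 members that have more than 1. Filled circles are the probe sets used and crosses the others; Edem1 (−0.13 used and −1.42), Ddit3 (1.21 used and 0.17) and Ern1 (0.10 used and 1.05) have probe sets far apart.

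The vectors were compared next. With both AdmiR7a arrays past a log2 difference of 1 the same way, 2 members were counted, Atf3 and Ddit3, against 4.43% of all genes. AdmiR7b passed 1 in 3 members, Atf3, Ddit3 and Atf6, against 8.18% of all genes. AdmiR7b and AdmiR7a share the AdGFP control, so their differences were set against each other directly. AdmiR7b minus AdmiR7a lay between −0.27 for Wfs1 and 0.29 for Trib3, with a median size of 0.06 over members and 0.10 over all genes. When limma was fitted with each vector's own mean, which leaves 1 residual degree of freedom, 0 of 10367 genes were called. The lowest adjusted p over all genes was 0.739, and 597 genes, among them 1 member, Wfs1, had an unadjusted p under 0.05. Missing the threshold does not show that the vectors act alike.

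In the islets, through the probe sets used, no member reached a log2 difference of 1 between KO and WT, against 2.84% of 10553 genes. At a size of 0.58, 1 member did, against 9.1% of genes. There was 1 array per group, so these differences have no replicate check. Ero1a read 11.43 in KO and 10.53 in WT, 1.86-fold higher in KO. The other Ero1a probe sets were 0.35 and 0.53 higher in KO. The next highest, Dnajc3, read 12.92 in KO and 12.37 in WT, but its other probe sets were between 0.09 and 0.52 lower in KO. Some probe sets not used passed 0.58, in both directions. A probe set of Ddit3 (8.13 in KO and 5.27 in WT) and one of Ern1 (7.43 and 6.36) passed 1. A dim probe set of Ern1 went the other way (2.67 and 3.35). Of the others past 0.58, Hsp90b1 read 13.42 in KO and 12.50 in WT, Edem1 13.03 and 12.14, and Sel1l 6.55 and 7.21.

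The median over the members was 0.04 and over all genes −0.02, with 20 members higher and 16 lower in KO. Of all 10553 genes, 4805 were higher and 5661 lower. In the Atf4-Ddit3 arm 7 of 8 were higher in KO (median 0.20). The median size of the difference was 0.20 in this arm and 0.17 over all genes. Trib3 read 11.86 in KO and 11.53 in WT, Ppp1r15a 9.15 and 8.81, Atf4 13.56 and 13.30, and Asns 13.92 and 13.69. Ddit3 (13.07 and 12.96) and Atf3 (6.37 and 6.40), the members highest with miR-7 in MIN6, differed little through their brightest probe sets. A dimmer probe set of Ddit3 read 8.13 in KO and 5.27 in WT.

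The sensors Atf6 (11.50 in KO and 11.18 in WT) and Eif2ak3 (10.52 and 10.56) were at 0.32 and −0.05. The lowest members were the folding genes Dnajb11 (11.01 and 11.40) and Pdia4 (10.72 and 11.08). Through the probe sets used, Sel1l was at −0.22, Edem2 at −0.19, Derl1 at −0.16 and Syvn1 at −0.12, while Edem1 was at 0.22 and Derl2 at 0.15. Hspa5 read 15.42 in KO and 15.49 in WT. Bulk islets hold several cell types, so fewer cells of a type and less RNA per cell cannot be told apart.

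The MIN6 calls can be set beside the islets, which share no control with them. Of the 6 members that fell with miR-7, 5 were higher in KO islets (Atf6, Ero1a, Pdia6, Chac1 and Asns), and Syvn1 was lower. Among all genes that fell and had an islet value, 69.3% (807 of 1164) were higher in KO. Of the 4 members that rose, Ddit3 and Ppp1r15a were higher and Atf3 and Eif2ak3 lower in KO, and among all genes that rose 32.0% (437 of 1365) were higher. Of the 13 other Atf4 targets that fell, 12 were higher in KO. The highest were Slc7a3 (1.87) and Cth (1.43), Nupr1 was at 0.88, and Phgdh was the gene lower in KO (−0.12). The median over the 13 was 0.19, against 0.12 over all genes that fell. In the whole list of other Atf4 targets, Cars (−0.41) and Aldh18a1 (−0.13), which were not called in MIN6, were lowest in KO minus WT.

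Across systems, the MIN6 and islet arrays did not overlap in 27 members (75.0%), near the 76.2% of 10635 genes. The islets were above in 18 and MIN6 in 9, and the same split over all genes was not computed. Cell line against tissue, virus against none, RNA quality and array hybridization cannot be told apart here. In 6 members both islet arrays were at least 1 above all MIN6 arrays, against 12.7% of genes, and in no member was MIN6 at least 1 above the islets, against 14.6%. The gap between the nearest arrays was 1.82 for Sel1l, 1.5 for Trib3, 1.34 for Ddit3, 1.25 for Derl1, 1.07 for the co-chaperone gene Dnajb9 and 1.04 for Herpud1. The 6 were 16.7% of the members, near the share of all genes, and 5 of them serve degradation or the Atf4-Ddit3 arm. Trib3 read 11.53 in WT islets and 9.55 on AdGFP, and Ddit3 12.96 and 10.30. The 9 members above in MIN6 were P4hb, Dnajb11, Dnajc3, Creld2, Manf, Syvn1, Eif2ak3, Atf3 and Ppp1r15b. These orders hold for the probe sets used. The other probe sets of Dnajc3 all had the islets above, such as 12.88 in KO and 12.99 in WT against 12.02 on AdGFP. Ern1, counted with the islets above, had another probe set at 7.80 on AdGFP and 4.94 in both islet arrays. A further Hsp90b1 probe set read 15.09 on AdGFP, 13.42 in KO and 12.50 in WT. A dimmer Ddit3 probe set overlapped, at 6.62 on AdGFP, 8.13 in KO and 5.27 in WT. The Derl1 probe set with the islets nearest to MIN6 read 10.43 on AdGFP, 10.71 in KO and 10.50 in WT. The count takes in the AdGFP array, so all 9 lay above the islets on AdGFP by definition. Examples are Eif2ak3 (11.18 against 10.56 in WT) and Atf3 (6.91 against 6.40).

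**Figure D5:**
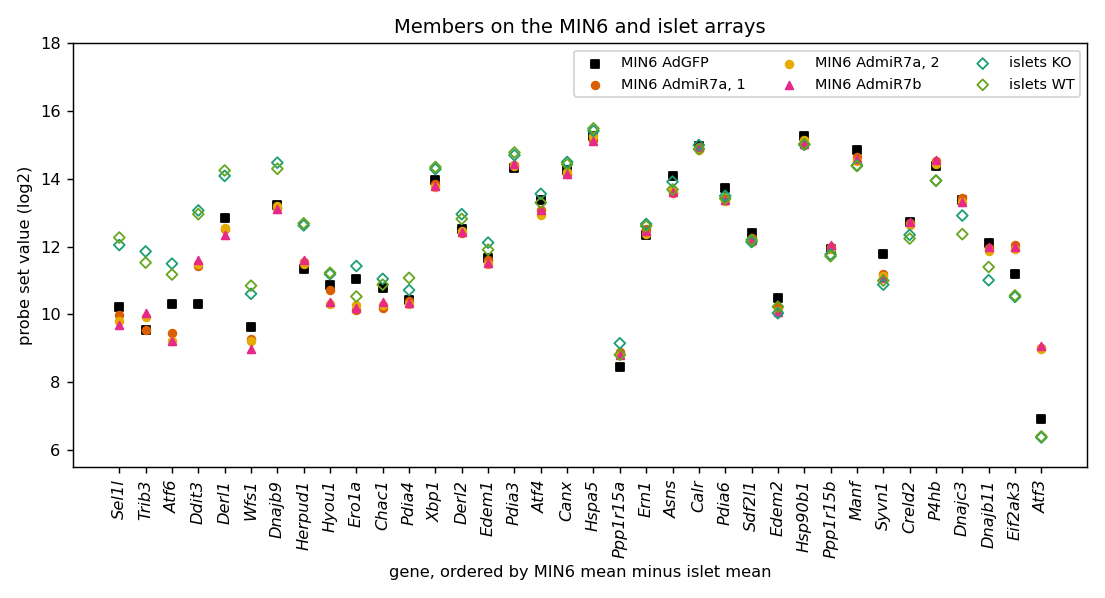
Log2 probe set value (y axis) of the 36 members on the 4 MIN6 arrays (filled) and the 2 islet arrays (open), ordered on the x axis by MIN6 mean minus islet mean. Sel1l, Trib3, Ddit3 and Derl1 lie on the left, where the islets are higher, and Eif2ak3 and Atf3 on the right; values of different genes are not comparable in level.

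Over the members, the SD of the difference between AdGFP and a miR-7 array was 0.534 to 0.584, between miR-7 arrays 0.094 to 0.145, and between KO and WT 0.245. The upper quartile of all probe sets was 7.95 to 8.01 on the 6 arrays. The 3′ minus 5′ signal of actin, a measure of RNA length, was 1.43 to 1.48 in MIN6 and 2.65 and 2.77 in KO and WT islets. The added poly-A spikes read 7.24 to 7.45 in MIN6, 9.15 in KO and 10.4 in WT. The bioB hybridization controls read 9.0 to 9.2 in MIN6, 4.53 in KO and 4.37 in WT. In MIN6 the insulin gene Ins2 and Iapp were high on all arrays, but the glucose transporter gene Slc2a2 was at 3.84 on AdGFP, and Pdx1, Nkx6-1, Ucn3 and Slc30a8 fell. Of 9 acinar markers with a probe set, 1 was at 4 or more in MIN6 and 3 in the islets, with summed linear signals of 1390 in KO and 1690 in WT. The marker on in MIN6 was Bhlha15 (9.84 on AdGFP), which was also the brightest of the 9 in the islets (10.07 in KO and 10.42 in WT). Cela1 read 8.04 and 8.02, and Cela3b 4.01 and 4.30. The 6 immune markers were all below 4 in MIN6, and 5 of 6 were at 4 or more in both islet arrays (summed 1230 and 1180). Of 6 endothelial markers, Plvap and Esam rose in MIN6 (0.85 and 0.79) while Pecam1, Cdh5, Tek and Kdr were near the lowest value of the arrays. The sum over the 6 was 198 on AdGFP, 315 to 340 with miR-7, 1830 in KO and 2130 in WT. The part of these values in the members' differences was not tested.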

How the data were processed

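Values are log2 intensities that the authors deposited per probe set, made with GCRMA and the affy package per the submitters' processing notes, which give no versions. Which arrays were normalized together is not stated. The lowest deposited value, 2.169, was held by about 30% of probe sets on each array. Symbols came from the platform table and were updated through Entrez identifiers to RefSeq (GRCm38.p6) for 34754 of 34958 probe sets with a single symbol; 932 had several and 9211 none. Members and lists were chosen with earlier results of these data known.

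Genes with a mean of at least 4 over the arrays compared were kept: 10367 in MIN6, 10553 in islets and 10635 over all arrays. The pooled fit set the 3 miR-7 arrays against AdGFP with 2 residual degrees of freedom (limma 3.58.1 in R 4.3.3), two-sided and adjusted by Benjamini-Hochberg. The fit was run on simulated arrays in which AdGFP varied like the miR-7 arrays, so the effect of a deviating AdGFP array was not tested. KO and WT, with 1 array each, were compared by size. Other steps used Python 3.11.15 and pandas 2.3.3.

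Named were all members and, from each other list, the called genes, at most the 4 highest and 4 lowest, and the 2 highest and 2 lowest in KO minus WT. Cell type markers were chosen as a list. Alternatives changed the filter, the probe set rule, the normalization, the variance model, the size and the arrays in the fit.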

Additional observations from a re-analysis of the deposited data

How the results depend on the processing

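The pooled fit called 10 members, of which 4 rose and 6 fell, and 1456 and 1257 genes in all. Without a filter 1 member was called, Atf3, which rose (adjusted p = 0.00736), 0 fell, and 403 and 540 genes rose and fell. With the mean of a gene's probe sets 10 members fell and 3 rose, and Pdia3 turned from 0.09 to −0.01 (adjusted p = 0.929). With AdmiR7a alone in a fit with a mean per vector, limma called 0 members and 0 genes in either direction (lowest adjusted p = 0.0666), with 3809 genes and 14 members at an unadjusted p under 0.05. Leaving out each miR-7 array in turn gave 0 to 0 calls for members and for all genes, in either direction. The fits with a filter at 6, quantile normalization again, median centring, an intensity trend or the probe set of the highest MIN6 mean called 10 to 12 members. With a size of 0.58, 6 members passed on both AdmiR7a arrays and 7 with AdmiR7b, against 2 and 3 at a size of 1, and with the mean of probe sets 1 passed with AdmiR7a. In KO minus WT, 1 member passed a size of 1 with the mean of probe sets, Ddit3 (1.49), and 1 passed 0.58. With the probe set of the highest islet mean, Dnajc3 turned to −0.11 and Edem1 reached 0.89. MIN6 was higher than the islets by at least 1 in 1 member with the mean of probe sets and in 1 with AdGFP against WT alone, in place of 0. No paired analysis was possible because the labels number replicates in the AdmiR7a group only.

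The single AdGFP array is the control for every MIN6 difference, so a deviation of that array would enter all of them. The islet differences have 1 array on each side. Probe sets near the lowest value of the arrays have no order among them.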

Other observations

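Genes whose proteins bring new chains into the ER or carry them out were listed apart. Of 28 tested in MIN6, 1 rose, against 14.0% of all genes, and 2 fell, against 12.1%, with a median of 0.07. Sec61a1, the channel through which chains enter the ER, read 14.46 on AdGFP and 13.64, 13.53 and 13.43 with miR-7 and fell by 0.93 (adjusted p = 0.0167 by limma). Serp1, which stabilises membrane proteins at that channel, fell by 0.57, and Sec13, a coat protein of ER export vesicles, rose by 0.61 (adjusted p = 0.0209 and 0.0275). In the islets Sec62 (12.61 in KO and 11.51 in WT) and the cargo receptor gene Lman1 (11.88 and 10.85) were highest in KO, and Kdelr3 (5.83 and 6.75) and Mcfd2 (11.70 and 12.20) were lowest, with 1 array per group.

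Relatives of Atf6 and genes of ER stress-linked cell death formed the last lists, to be read against the same shares of all genes. The first held 8 tested genes, of membrane-bound transcription factors, their proteases and other stress factors. Atf6b fell by 0.58 and Mbtps2, a protease that cuts Atf6, fell by 0.46 (adjusted p = 0.0392 and 0.0295). Of the other stress factors, the antioxidant factor Nfe2l2 rose by 0.41 (adjusted p = 0.0342). Of 10 cell death genes, Txnip, an inhibitor of thioredoxin, rose by 0.76 and the kinase gene Map3k5 by 0.50, while the BH3-only gene Bcl2l11 fell by 0.67 (adjusted p = 0.0161, 0.0407 and 0.0237), and the median was 0.32. In the islets the cell death genes Pmaip1 (5.43 in KO and 6.40 in WT) and Bok (5.42 and 6.37) were lowest.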
